A study of Homo sapiens with 11 samples.

Results

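Interferon-stimulated genes were followed in hTert-HME1, a human mammary epithelial cell line immortalised with telomerase, as EGF was removed from the medium and as cells received an siRNA against BRCA2. The gene list held 43 symbols, of which 42 were in the deposited table and CMPK2 was not analysed here. The members described below are the 36 symbols with a value of 10 or more on the linear scale in at least 2 libraries, out of 17945 genes that passed the same filter and 40460 in the table. The 6 symbols under the filter were OASL, MX2, IFITM1, BST2, IFI27 and HERC5, and their highest value in any library was 2.71, for IFI27.

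RNA was sequenced from 11 libraries in 4 groups. They were BRCA2 siRNA without EGF (replicates A, B and C), control siRNA without EGF (A and C), BRCA2 siRNA with EGF (A, B and C) and control siRNA with EGF (A, B and C). All cells were at passage 6, in Mammary Epithelial Growth Medium, and had been transfected with RNAiMAX and a single siRNA, BRCA2-1 or control-2, so the control cells carried an siRNA too. Total RNA was depleted of ribosomal RNA with RiboZero and made into ScriptSeq v2 libraries. The line is 1 cell line, and the labels call A, B and C biological replicates without saying what was separate about them, so the p-values measure the spread between these samples. Values were deposited in log2 units without read counts, which leaves library depth unknown and allows no counting interval. They are not scaled for transcript length, so levels are compared between libraries and not between genes. In bulk RNA, fewer cells that express a gene and less RNA per cell cannot be told apart.

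Cells that meet type I or type III interferon pass the signal from the receptor through JAK kinases to a complex that includes STAT2 and IRF9, which binds interferon-response elements near the start of its target genes. The proteins made from these genes sense viral RNA, bind or degrade it, block virus entry, or feed back on the pathway. Several of the genes are also read at a low level in unstimulated epithelial cells, where they depend on STAT2, IRF9 and other IRF factors.

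Stretches of the start-site windows of 8 members are shown because they carry the interferon-response core and cover the range of what the members did on EGF withdrawal under control siRNA. IFIT1, IFI44L, RSAD2, IFIH1, SAMD9 and IFITM3 rose, ISG15 did not pass the test in spite of 3 core matches in a row, and ISG20 fell. The sequences are 5′ to 3′ on the strand of the gene, from RefSeq windows on GRCh38.p14, a later build than the hg19 build of the deposited data. Capitals mark matches to GAAANNGAA on either strand.
IFIT1: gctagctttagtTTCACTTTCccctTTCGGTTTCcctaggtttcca
IFI44L: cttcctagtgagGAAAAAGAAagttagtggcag
RSAD2: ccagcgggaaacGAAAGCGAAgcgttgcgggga
IFIH1: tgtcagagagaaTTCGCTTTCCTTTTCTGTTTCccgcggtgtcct
SAMD9: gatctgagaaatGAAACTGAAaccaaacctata
IFITM3: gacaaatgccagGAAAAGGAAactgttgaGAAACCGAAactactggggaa
ISG15: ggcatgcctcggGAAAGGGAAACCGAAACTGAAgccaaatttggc
ISG20: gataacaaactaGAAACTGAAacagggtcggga

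The IFIT1 stretch lies at chr10:89392496-89392541 (plus strand), at -127 to -82 from the start site. IFI44L is shown at chr1:78620272-78620304 (plus), RSAD2 at chr2:6865794-6865826 (plus) and ISG15 at chr1:1013372-1013416 (plus). The IFIH1 stretch is chr2:162318816-162318860 (minus), that of SAMD9 chr7:93118095-93118127 (minus), that of IFITM3 chr11:320875-320924 (minus) and that of ISG20 chr15:88638935-88638967 (plus). A window ran from 250 bases before to 50 bases after a start site, and 30 of the 36 members had at least 1. DHX58, IFIT2, IFITM2, IRF7, OAS2 and USP18 had none in the table. The core was found in 19 of these 30 members (63.3%), against 2693 of 27305 genes (9.86%). The gamma-activated motif TTCNNNGAA, searched on both strands, was found in 8 of the 30 members (26.7%), against 2560 of 27305 genes (9.38%). In MX1 and EPSTI1 a match to one motif shared bases with a match to the other. A match describes letters in these windows and does not show that a factor was bound.

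**Figure D1:**
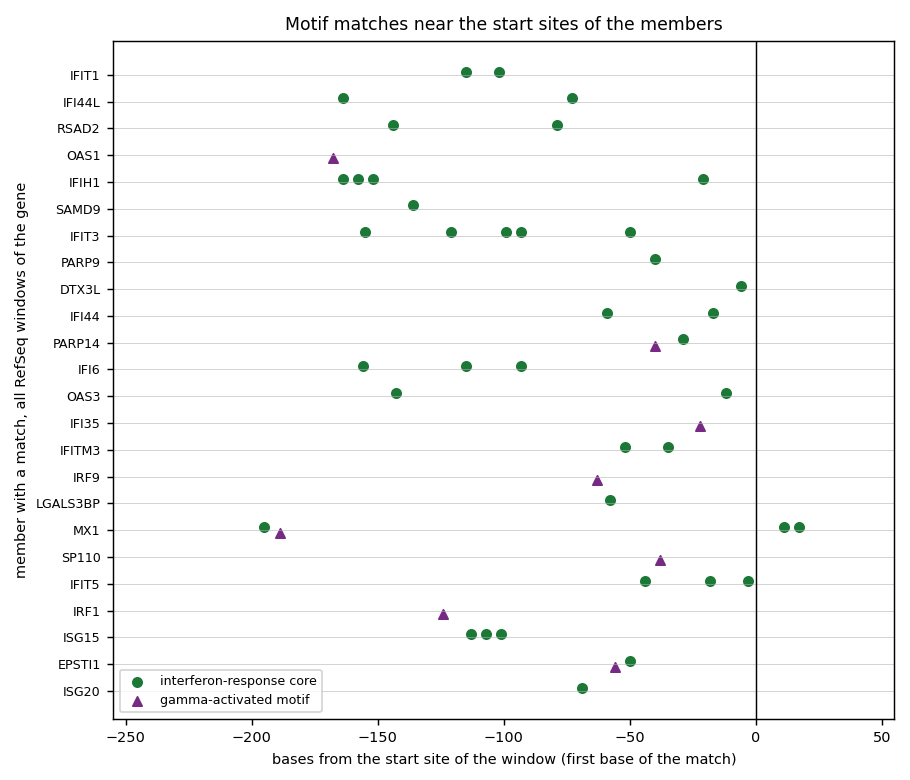
Positions of matches to the interferon-response core (circles) and the gamma-activated motif (triangles), in bases from the start site, for the members with a match. Members run from the highest log2 difference on EGF withdrawal under control siRNA at the top to the lowest at the bottom. IFIT1 (2.91) and ISG20 (-1.36), at the ends of the order, both have core matches upstream of the start site.

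Calls were found in members with and without the core. On EGF withdrawal under control siRNA, 12 of the 19 members with a core rose and 2 fell, and 7 of the 11 members without one rose and 1 fell. Of all genes tested, 24.7% rose and 26.1% fell. The median log2 difference was 0.85 with a core and 0.49 without, and a difference between these medians was not tested. RSAD2, with a core, and OAS1, without one, passed the filter through libraries without EGF alone, so their rise was built into their selection.

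Some facts of the libraries touch every result below. The RNA of the targeted gene, BRCA2, had a mean at or above that of control siRNA where the label reads BRCA2 siRNA. Its log2 value was 12.48, 12.27 and 12.11 in those without EGF, against 11.44 and 11.65 in control siRNA without EGF, a difference of 0.74 ± 0.13 (adjusted p = 0.00397). With EGF it was 12.43, 12.37 and 12.40 in those labelled BRCA2 siRNA and 12.45, 12.13 and 12.48 in control siRNA, a difference of 0.05 ± 0.12 (adjusted p = 0.999). Those libraries are therefore named by their label throughout. In every gene the 4 libraries of replicate A and the 7 of replicates B and C had the same mean, to within 7.2e-09. Control siRNA without EGF made up 1 of the 4 and 1 of the 7. For some results, differences are therefore also given within A and within B and C, where that group is the single library C. Of the basal mammary markers, 8 of 8 passed the filter, among them KRT5 and KRT14. Of the 8 luminal markers 4 passed it, among them KRT8 and KRT18, while KRT19, EPCAM, PGR and ELF5 did not.

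EGF withdrawal in the BRCA2 siRNA-labelled libraries raised 9 of the 36 members and lowered 2, against 13.4% and 13.8% of all genes tested. Under control siRNA it raised 21 members and lowered 3, against 24.7% and 26.1% of all genes. In this fit of all libraries, the share of members that rose was above that of the genome under both siRNAs. The share that fell (2 and 3 of 36) was below it. The median member differed by 0.31 on the log2 scale in the BRCA2 siRNA-labelled libraries (0.003 over all genes) and by 0.69 under control siRNA (-0.004 over all genes). The 9 that rose in the BRCA2 siRNA-labelled libraries were 9 of the 21 that rose under control siRNA, and both that fell, ISG20 and RIGI, were among its 3. These withdrawal comparisons share no library, but they share the estimate of spread and the centring of replicate A. A member that passed the filter through its high group alone had to differ: RSAD2 passed through the libraries of control siRNA without EGF, and OAS1 through libraries without EGF. With no filter, all 42 genes in the table were tested, of which 6 rose and 2 fell in the BRCA2 siRNA-labelled libraries, and 20 rose and 3 fell under control siRNA. With quantile-normalized values the counts in the BRCA2 siRNA-labelled libraries were 7 and 3. With a term for replicate A in the model, the calls of IFIT1, OAS1 and SAMD9L in the BRCA2 siRNA-labelled libraries ended (adjusted p from 0.0556 to 0.0572). With replicates B and C alone, where 3 residual degrees of freedom remained, 0 passed in the BRCA2 siRNA-labelled libraries, and 10 members rose and 1 fell under control siRNA. Without BRCA2 siRNA with EGF replicate A, BRCA2 siRNA without EGF replicate B or BRCA2 siRNA without EGF replicate C, 4 rose and 2 fell in the BRCA2 siRNA-labelled libraries in each case. The shares of all genes under these alternatives are not given here. Whether the members that rose in the BRCA2 siRNA-labelled libraries stayed above the genome there is therefore not shown.

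**Figure D2:**
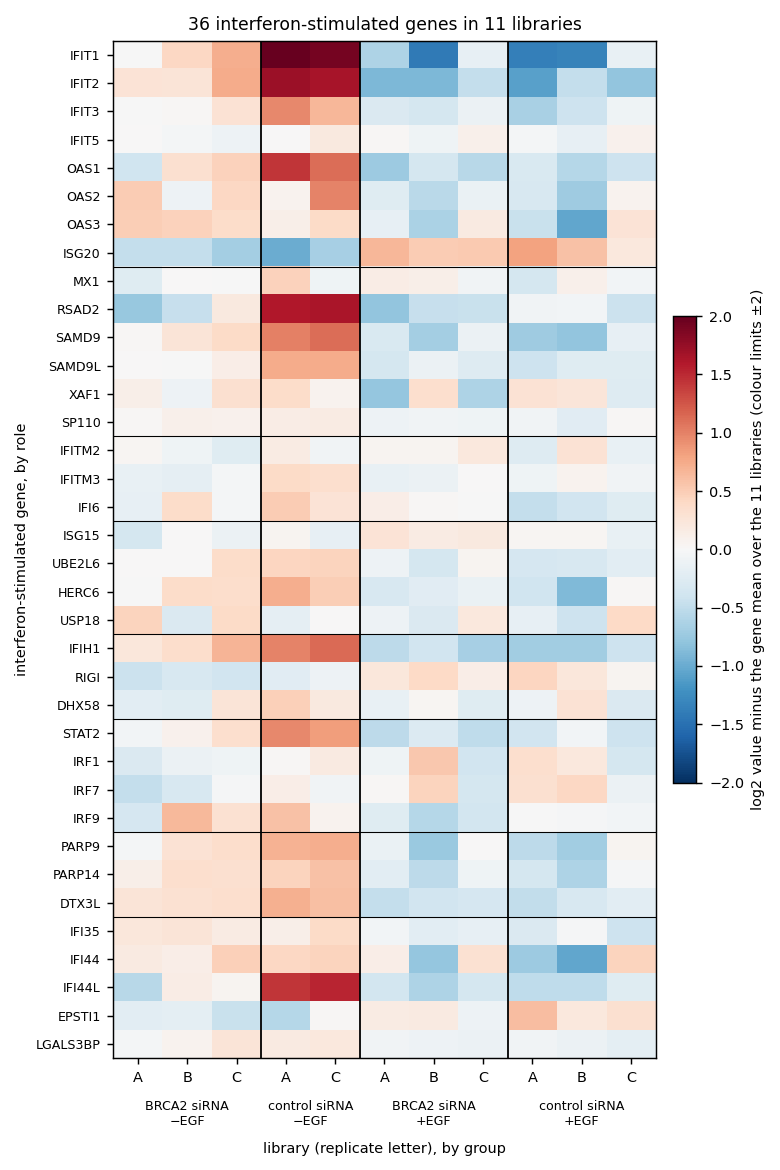
Log2 value of each of the 36 members in each of the 11 libraries, minus the mean of that member over the 11 libraries. Columns are libraries by group and replicate letter, and lines between genes separate the role groups. The 2 libraries of control siRNA without EGF hold most of the deep red, as in IFIT1 (8.24 and 8.14) and IFIT2 (7.53 and 7.46), while ISG20 and RIGI run the other way.

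The tetratricopeptide-repeat proteins IFIT1, IFIT2 and IFIT3 bind foreign RNA or each other and stop its translation. IFIT1 had log2 values of 6.22, 6.65 and 6.95 in BRCA2 siRNA without EGF, 8.24 and 8.14 in control siRNA without EGF, 5.61, 4.83 and 6.07 in BRCA2 siRNA with EGF and 4.86, 4.90 and 6.09 in control siRNA with EGF. Libraries without EGF lay above all libraries with EGF, and those of control siRNA lay highest. Withdrawal raised IFIT1 by 1.10 ± 0.36 in the BRCA2 siRNA-labelled libraries (n = 3 and 3, adjusted p = 0.0441; 0.61 within A, 1.35 within B and C). The rise was 2.91 ± 0.41 under control siRNA (7.51-fold, n = 2 and 3, adjusted p = 0.000192; 3.38 within A, 2.65 within B and C). The call in the BRCA2 siRNA-labelled libraries ended on leaving out any 1 of 7 libraries, with values from 0.76 to 1.16 and adjusted p from 0.0501 to 0.148. It stood without BRCA2 siRNA with EGF replicate C, BRCA2 siRNA without EGF replicate A, and control siRNA with EGF replicates B and C.

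IFIT2 was at 6.08, 6.07 and 6.56 in BRCA2 siRNA without EGF, 7.53 and 7.46 in control siRNA without EGF, 4.90, 4.91 and 5.33 in BRCA2 siRNA with EGF and 4.72, 5.33 and 5.01 in control siRNA with EGF. It rose by 1.19 ± 0.20 in the BRCA2 siRNA-labelled libraries (2.28-fold, adjusted p = 0.00251) and by 2.47 ± 0.22 under control siRNA (5.54-fold, adjusted p = 1.9e-05). Both calls held on leaving out any single library. IFIT3 had 8.04, 8.08 and 8.34 in BRCA2 siRNA without EGF, 9.01 and 8.72 in control siRNA without EGF, 7.77, 7.71 and 7.94 in BRCA2 siRNA with EGF and 7.41, 7.64 and 7.97 in control siRNA with EGF. It differed by 0.35 ± 0.16 in the BRCA2 siRNA-labelled libraries (adjusted p = 0.112) and rose by 1.20 ± 0.17 under control siRNA (adjusted p = 0.000241). IFIT5, a related RNA-binding protein, lay between 9.98 and 10.34 in all 11 libraries and passed no test. IFIT1, IFIT2 and IFIT3 overlap LIPA, a lysosomal lipase gene, on the opposite strand, and the strand setting of the counting is not given in the sources used here. LIPA rose by 0.55 ± 0.21 on withdrawal under control siRNA (adjusted p = 0.0495) and passed in no other comparison. Reads shared among the IFIT copies could also be split by the counting.

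**Figure D3:**
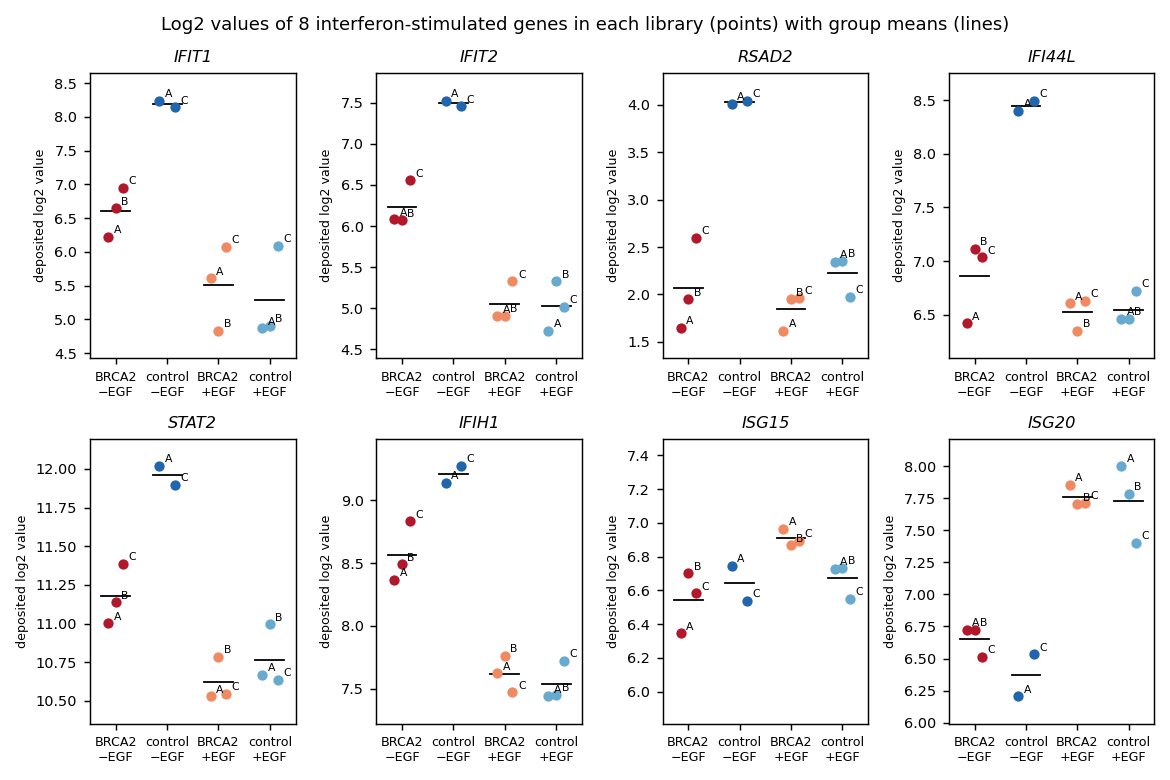
Log2 values of 8 members in each library (points with the replicate letter) and the mean of each group (lines), with a vertical axis for each gene that does not start at 0. IFIT1, IFIT2, RSAD2, IFI44L, STAT2 and IFIH1 are highest in the 2 libraries of control siRNA without EGF, ISG15 stays between 6.35 and 6.96 in all 11 libraries, and ISG20 is lower in every library without EGF than in any with EGF.

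The oligoadenylate synthetases answer double-stranded RNA by making the messenger that switches on RNase L, and ISG20 is an exonuclease that degrades RNA. OAS1 had 2.71, 3.43 and 3.57 in BRCA2 siRNA without EGF, 4.55 and 4.23 in control siRNA without EGF, 2.38, 2.76 and 2.56 in BRCA2 siRNA with EGF and 2.81, 2.53 and 2.70 in control siRNA with EGF. With EGF, OAS1 was thus below the filter in every library, where the size of a fold depends on a transform that the sources used here do not give. It rose by 0.67 ± 0.22 in the BRCA2 siRNA-labelled libraries (adjusted p = 0.0435) and by 1.71 ± 0.25 under control siRNA (adjusted p = 0.000227). The call in the BRCA2 siRNA-labelled libraries ended without any 1 of 7 libraries (0.50 to 0.67, adjusted p from 0.0543 to 0.154), and stood without BRCA2 siRNA with EGF replicate B, BRCA2 siRNA without EGF replicate A, and control siRNA with EGF replicates B and C.

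OAS2 lay at 4.72, 4.12 and 4.64 in BRCA2 siRNA without EGF, 4.29 and 5.21 in control siRNA without EGF, 3.97, 3.67 and 4.08 in BRCA2 siRNA with EGF and 3.90, 3.51 and 4.29 in control siRNA with EGF. It passed under control siRNA (0.85 ± 0.31, adjusted p = 0.0381) although the control libraries with and without EGF met at 4.29. The call ended without control siRNA without EGF replicate C (0.39, adjusted p = 0.385), control siRNA with EGF replicate B (0.65, adjusted p = 0.115), control siRNA with EGF replicate A (0.84, adjusted p = 0.0812) or BRCA2 siRNA with EGF replicate A (0.85, adjusted p = 0.0525). OAS3 did not pass in any comparison, with 0.66 ± 0.31 under control siRNA (adjusted p = 0.0995). The 3 OAS genes overlap a single opposite-strand gene in the annotation, AC004551.1.

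ISG20 moved against most of the list. Its values were 6.72, 6.72 and 6.51 in BRCA2 siRNA without EGF, 6.21 and 6.53 in control siRNA without EGF, 7.85, 7.70 and 7.71 in BRCA2 siRNA with EGF and 8.001, 7.78 and 7.40 in control siRNA with EGF. On withdrawal it fell by 1.10 ± 0.16 in the BRCA2 siRNA-labelled libraries (adjusted p = 0.00139; -1.13 within A, -1.09 within B and C) and fell by 1.36 ± 0.18 under control siRNA (adjusted p = 0.000134; -1.79 within A, -1.06 within B and C). The groups with and without EGF did not overlap under either siRNA.

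RSAD2 encodes viperin, a radical SAM enzyme that makes a chain-terminating nucleotide. Its values were 1.65, 1.95 and 2.60 in BRCA2 siRNA without EGF, 4.01 and 4.04 in control siRNA without EGF, 1.61, 1.95 and 1.96 in BRCA2 siRNA with EGF and 2.34, 2.35 and 1.98 in control siRNA with EGF. Control siRNA without EGF was the only group above the filter. RSAD2 differed in the BRCA2 siRNA-labelled libraries by 0.22 ± 0.23 (adjusted p = 0.483) with overlapping groups, and under control siRNA it rose by 1.80 ± 0.25 (adjusted p = 0.000193). It overlaps CMPK2 on the opposite strand.

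SAMD9 and its neighbour SAMD9L are cytosolic proteins that restrict poxviruses and translation. SAMD9 was at 11.89, 12.13 and 12.25 in BRCA2 siRNA without EGF, 12.89 and 12.99 in control siRNA without EGF, 11.56, 11.20 and 11.76 in BRCA2 siRNA with EGF and 11.16, 11.09 and 11.71 in control siRNA with EGF. It rose by 0.59 ± 0.18 in the BRCA2 siRNA-labelled libraries (1.50-fold, adjusted p = 0.0311) and by 1.62 ± 0.20 under control siRNA (3.08-fold, adjusted p = 8.1e-05). SAMD9L had 8.93, 8.91 and 9.04 in BRCA2 siRNA without EGF, 9.66 and 9.65 in control siRNA without EGF, 8.57, 8.79 and 8.66 in BRCA2 siRNA with EGF and 8.50, 8.68 and 8.67 in control siRNA with EGF. It rose by 0.29 ± 0.09 in the BRCA2 siRNA-labelled libraries (adjusted p = 0.0441) and by 1.04 ± 0.11 under control siRNA (adjusted p = 3.1e-05). In the BRCA2 siRNA-labelled libraries the SAMD9 call ended without replicate A or B with EGF or without replicate B or C without EGF (0.43 to 0.62, adjusted p from 0.0767 to 0.113). There the SAMD9L call ended without any 1 of 7 libraries (0.23 to 0.31, adjusted p from 0.068 to 0.158), and stood without BRCA2 siRNA with EGF replicate B or any control siRNA with EGF replicate. The pair are related genes, and any reads they share could be split by the counting.

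MX1, a GTPase that traps viral nucleocapsids, lay between 5.65 and 6.46 in all libraries and passed no test, and neither did XAF1, a pro-apoptotic protein, between 4.13 and 5.28. The nuclear body protein SP110 rose by 0.24 ± 0.09 under control siRNA (adjusted p = 0.0418), a call that ended without any 1 of 9 libraries (adjusted p from 0.0507 to 0.161) and stood without BRCA2 siRNA with EGF replicate B or control siRNA with EGF replicate C.

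Among the membrane-associated effectors, IFITM3, which blocks fusion of virus with endosomes, was at 9.88, 9.85 and 9.99 in BRCA2 siRNA without EGF, 10.42 and 10.37 in control siRNA without EGF, 9.89, 9.92 and 10.05 in BRCA2 siRNA with EGF and 9.95, 10.11 and 9.97 in control siRNA with EGF. The 2 control libraries without EGF lay above the other 9, which spanned 9.85 to 10.11. IFITM3 in the BRCA2 siRNA-labelled libraries differed by -0.04 ± 0.08 (adjusted p = 0.711). It rose by 0.38 ± 0.09 under control siRNA (adjusted p = 0.00523), and without control siRNA without EGF replicate A that value was 0.36 (adjusted p = 0.0512). IFI6, a small membrane protein of mitochondria and the endoplasmic reticulum, had 6.62, 7.16 and 6.75 in BRCA2 siRNA without EGF, 7.29 and 7.06 in control siRNA without EGF, 6.91, 6.80 and 6.79 in BRCA2 siRNA with EGF and 6.32, 6.40 and 6.54 in control siRNA with EGF. It differed by 0.01 ± 0.15 in the BRCA2 siRNA-labelled libraries (adjusted p = 0.967) and rose by 0.76 ± 0.17 under control siRNA (adjusted p = 0.00355). IFITM2 passed no test. The IFITM genes are close copies and overlap other annotated genes.

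ISG15 is a ubiquitin-like protein that is attached to other proteins. It had 6.35, 6.70 and 6.58 in BRCA2 siRNA without EGF, 6.74 and 6.54 in control siRNA without EGF, 6.96, 6.87 and 6.89 in BRCA2 siRNA with EGF and 6.73, 6.73 and 6.55 in control siRNA with EGF. On withdrawal ISG15 differed by -0.36 ± 0.13 in the BRCA2 siRNA-labelled libraries (adjusted p = 0.0584), where the groups did not overlap, and by -0.03 ± 0.15 under control siRNA (adjusted p = 0.879). UBE2L6 is the enzyme that carries ISG15 to its targets, and HERC6 is a HERC-family ligase. In the BRCA2 siRNA-labelled libraries UBE2L6 differed by 0.27 ± 0.13 and HERC6 by 0.46 ± 0.20, and neither passed (adjusted p = 0.135 and 0.113). UBE2L6 rose by 0.73 ± 0.14 under control siRNA, with 9.56 and 9.57 in control siRNA without EGF against 8.79, 8.81 and 8.92 with EGF (adjusted p = 0.00153). HERC6 rose by 1.02 ± 0.23 under control siRNA (adjusted p = 0.00348), with 7.99 and 7.76 without EGF against 6.87, 6.38 and 7.30 with EGF. USP18, which removes ISG15 and restrains the receptor, passed no test, with values between 3.63 and 4.49.

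The cytosolic RNA sensors moved apart. IFIH1 encodes MDA5, the sensor of long double-stranded RNA. It was at 8.37, 8.49 and 8.83 in BRCA2 siRNA without EGF, 9.14 and 9.27 in control siRNA without EGF, 7.62, 7.76 and 7.47 in BRCA2 siRNA with EGF and 7.44, 7.45 and 7.72 in control siRNA with EGF. IFIH1 rose by 0.94 ± 0.14 in the BRCA2 siRNA-labelled libraries (1.92-fold, adjusted p = 0.00157) and by 1.67 ± 0.16 under control siRNA (3.18-fold, adjusted p = 2.3e-05). RIGI, the sensor of short double-stranded RNA with a triphosphate end, had 9.59, 9.69 and 9.64 in BRCA2 siRNA without EGF, 9.79 and 9.92 in control siRNA without EGF, 10.24, 10.41 and 10.15 in BRCA2 siRNA with EGF and 10.45, 10.23 and 10.07 in control siRNA with EGF. Every library without EGF lay below every library with EGF. RIGI fell by 0.63 ± 0.11 in the BRCA2 siRNA-labelled libraries (adjusted p = 0.00289) and fell by 0.40 ± 0.12 under control siRNA (adjusted p = 0.0175). The fall under control siRNA lost its call without control siRNA with EGF replicate A (-0.30, adjusted p = 0.0664) or control siRNA without EGF replicate A (-0.33, adjusted p = 0.133), and with quantile-normalized values (-0.27, adjusted p = 0.0674). DHX58, which encodes LGP2, a helicase that tunes the other sensors, passed no test (0.37 ± 0.20 under control siRNA, adjusted p = 0.148).

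Of the 4 transcription factors of the response, STAT2 was the one to pass. It had 11.001, 11.14 and 11.39 in BRCA2 siRNA without EGF, 12.02 and 11.90 in control siRNA without EGF, 10.53, 10.79 and 10.55 in BRCA2 siRNA with EGF and 10.67, 10.996 and 10.63 in control siRNA with EGF. STAT2 rose by 0.56 ± 0.13 in the BRCA2 siRNA-labelled libraries (1.47-fold, adjusted p = 0.00958) and by 1.19 ± 0.14 under control siRNA (2.29-fold, adjusted p = 6.7e-05). Its partner IRF9 differed by 0.60 ± 0.23 in the BRCA2 siRNA-labelled libraries (adjusted p = 0.0771) and by 0.36 ± 0.26 under control siRNA (adjusted p = 0.272). IRF1 and IRF7, factors that drive interferon and antiviral genes, passed no test.

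PARP9 and PARP14 are ADP-ribosyltransferases, and DTX3L is the ubiquitin ligase that pairs with PARP9. All 3 rose under control siRNA. DTX3L had 10.74, 10.77 and 10.80 in BRCA2 siRNA without EGF, 11.18 and 11.08 in control siRNA without EGF, 9.99, 10.10 and 10.13 in BRCA2 siRNA with EGF and 9.99, 10.16 and 10.27 in control siRNA with EGF. It rose by 0.70 ± 0.09 in the BRCA2 siRNA-labelled libraries (adjusted p = 0.000728) and by 0.99 ± 0.10 under control siRNA (adjusted p = 2.5e-05). PARP14 rose by 0.53 ± 0.15 (adjusted p = 0.0227) in the BRCA2 siRNA-labelled libraries and by 0.85 ± 0.17 (adjusted p = 0.0016) under control siRNA. The PARP14 call in the BRCA2 siRNA-labelled libraries ended without replicate A or B with EGF or without replicate B or C without EGF (0.41 to 0.57, adjusted p from 0.0597 to 0.0783). PARP9 differed by 0.49 ± 0.22 in the BRCA2 siRNA-labelled libraries (adjusted p = 0.121) and rose by 1.10 ± 0.25 under control siRNA (adjusted p = 0.00353). PARP9 and DTX3L overlap on opposite strands.

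The remaining members have less settled roles. IFI44L, whose product restrains the response, was at 6.42, 7.11 and 7.03 in BRCA2 siRNA without EGF, 8.40 and 8.50 in control siRNA without EGF, 6.60, 6.35 and 6.63 in BRCA2 siRNA with EGF and 6.46, 6.46 and 6.72 in control siRNA with EGF. In the BRCA2 siRNA-labelled libraries the groups overlapped, with a difference of 0.33 ± 0.18 (adjusted p = 0.19; -0.18 within A, 0.59 within B and C). IFI44L rose by 1.90 ± 0.20 under control siRNA (3.74-fold, adjusted p = 3.9e-05). IFI44, next to IFI44L and similar to it, passed no test (0.87 ± 0.40 under control siRNA, adjusted p = 0.0908). LGALS3BP, a secreted glycoprotein, rose by 0.32 ± 0.09 under control siRNA (adjusted p = 0.015), and IFI35 by 0.49 ± 0.14 (adjusted p = 0.0134). EPSTI1 fell by 0.65 ± 0.20 under control siRNA, with 5.27 and 5.86 in control siRNA without EGF against 6.45, 6.05 and 6.15 with EGF (adjusted p = 0.0188; -1.18 within A, -0.24 within B and C). These 3 calls rested on single libraries. EPSTI1 lost its call without control siRNA without EGF replicate A (-0.36, adjusted p = 0.23) or control siRNA with EGF replicate A (-0.54, adjusted p = 0.0705). IFI35 lost it without control siRNA without EGF replicate C (0.36, adjusted p = 0.137), and LGALS3BP without either library of control siRNA without EGF (0.33 without A and 0.30 without C, adjusted p = 0.069 and 0.0857).

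**Figure D4:**
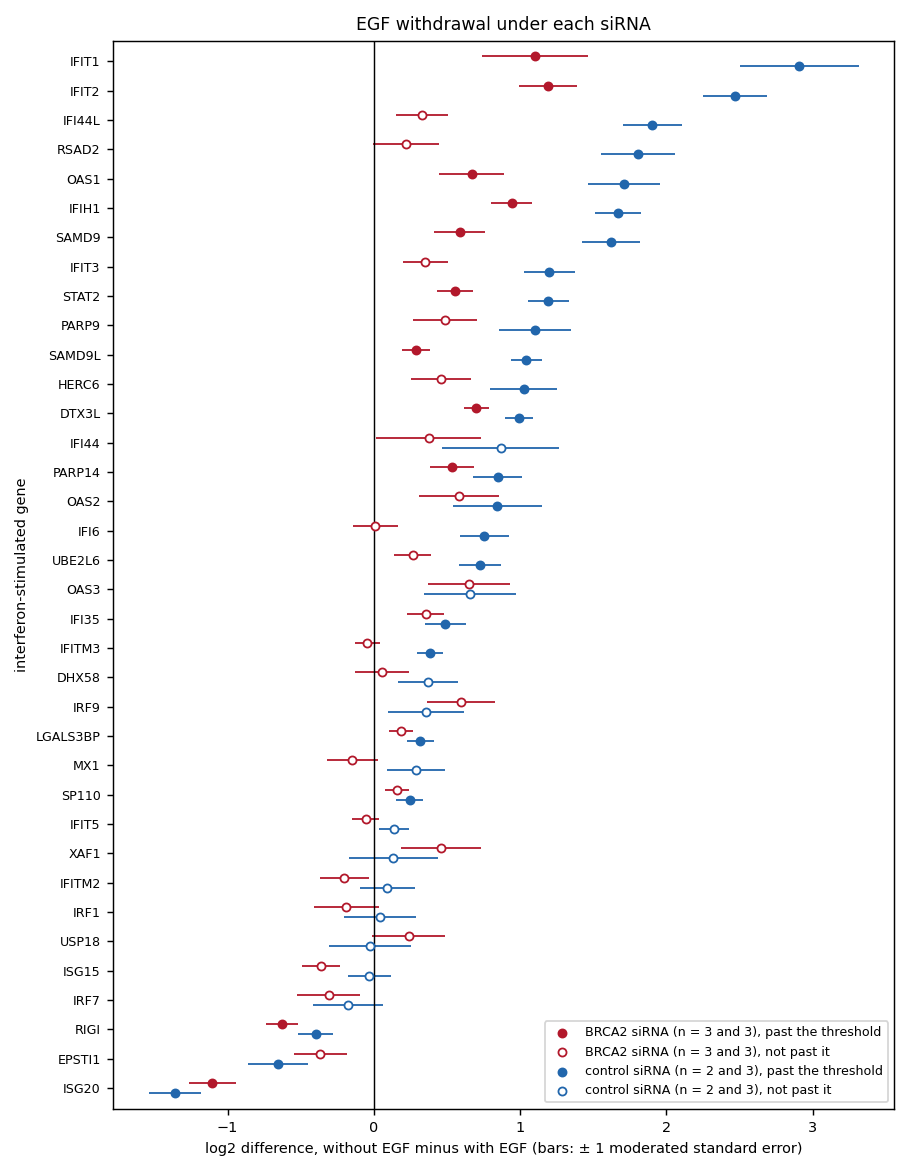
Log2 difference, without EGF minus with EGF, for each of the 36 members in BRCA2 siRNA-labelled libraries (red, upper point of each pair) and under control siRNA (blue, lower point), with bars of 1 moderated standard error. Filled points passed an adjusted p of 0.05. The red points reach 1.19 (IFIT2) and the blue points 2.91 (IFIT1), and 2 members in the BRCA2 siRNA-labelled libraries and 12 under control siRNA passed with a difference above 1.

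The siRNA comparison without EGF asks how the cells labelled BRCA2 siRNA differed from control siRNA cells in that medium. Of the 36 members 12 were lower in the BRCA2 siRNA-labelled libraries and 0 were higher, against 9.36% of all genes lower and 11.2% higher. The median difference was -0.28 (0.006 over all genes). This comparison shares the libraries of control siRNA without EGF with the withdrawal comparison under control siRNA, so a high value in those 2 libraries enters both, and their values are set side by side below without an overlap being read from them.

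Viperin (RSAD2) differed by -1.96 ± 0.25 (3.90-fold, n = 3 and 2, adjusted p = 0.00153), beside its withdrawal difference of 1.80 under control siRNA. RSAD2 passed the filter through control siRNA without EGF alone, so it had to be lower here, and its value is a description. With a stricter filter (2 or more libraries at a log2 value of 5 or above), under which RSAD2 and OAS1 were not tested, 10 of 30 members were lower and 0 higher. The share of all genes called under that filter is not given here, so this count is not compared with one. IFI44L differed by -1.59 ± 0.20 (3.02-fold, adjusted p = 0.00151), beside 1.90, and IFIT1 by -1.59 ± 0.41 (3.00-fold, adjusted p = 0.0198), beside 2.91. IFIT2 differed by -1.26 ± 0.22 (2.39-fold, adjusted p = 0.00412) and OAS1 by -1.15 ± 0.25 (2.22-fold, adjusted p = 0.00921). In these 5 genes every BRCA2 siRNA-labelled library without EGF lay below both control siRNA libraries without EGF, as the values by role above show.

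Smaller differences passed for SAMD9 (-0.85 ± 0.20), STAT2 (-0.78 ± 0.14), IFIT3 (-0.71 ± 0.17), SAMD9L (-0.70 ± 0.11), IFIH1 (-0.64 ± 0.16), IFITM3 (-0.49 ± 0.09) and DTX3L (-0.36 ± 0.10), with adjusted p from 0.00247 for SAMD9L to 0.0238 for DTX3L. By role, 4 of 8 RNA-binding and RNA-degrading effectors passed, 3 of the 6 effectors grouped with MX1 and RSAD2, 1 of 3 membrane-associated effectors, 0 of 4 genes of the ISG15 system, 1 of 3 sensors, 1 of 4 transcription factors, 1 of the 3 genes of the PARP9 group and 1 of the other 5. In the ISG15 system limma gave 0 members with an unadjusted p under 0.05 as well. Each of the 12 differences was negative both within replicate A and within replicates B and C, and larger within A: IFIT1 had -2.02 and -1.34, OAS1 -1.84 and -0.73, and SAMD9L -0.73 and -0.68.

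These counts leaned on few libraries. Without control siRNA without EGF replicate A, IFI44L, RSAD2 and SAMD9L were the 3 of the 12 that still passed, and with replicates B and C alone 0 passed. Without BRCA2 siRNA without EGF replicate A 7 passed, and 8 passed without its replicate B or without control siRNA without EGF replicate C. The calls of IFIT2, OAS1, STAT2 and IFITM3 ended, among single libraries, with the loss of control siRNA without EGF replicate A alone (-1.22, -0.99, -0.72 and -0.46, adjusted p = 0.0529, 0.101, 0.0646 and 0.0726). IFIT1, IFIH1 and DTX3L lost theirs without any 1 of 4 libraries, namely BRCA2 siRNA without EGF replicates A and B and both control siRNA libraries without EGF, where IFIT1 ran from -1.64 to -1.39, IFIH1 from -0.71 to -0.55 and DTX3L from -0.41 to -0.31. IFIT3 lost its call without BRCA2 siRNA without EGF replicate A or B or control siRNA without EGF replicate A (-0.68 to -0.57). SAMD9 lost it without BRCA2 siRNA without EGF replicate A or either control siRNA library without EGF (-0.90 to -0.75).

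With EGF in the medium, 0 of 36 members passed in the comparison of BRCA2 siRNA-labelled with control siRNA libraries by limma, and 1 had an unadjusted p under 0.05. That gene was IFI6, with 6.91, 6.80 and 6.79 in BRCA2 siRNA with EGF against 6.32, 6.40 and 6.54 in control siRNA with EGF (0.42 ± 0.15, adjusted p = 0.999). Of all genes, 0.0% were higher and 0.00557% lower. The largest absolute member difference was 0.44, for XAF1, and the standard errors ran from 0.08 to 0.36, so for genes with errors at the upper end, such as IFIT1 (0.22 ± 0.36), this comparison could not show a modest difference. Across these groups replicates B and C deviated together over the genes tested (0.70 each). The fit had no replicate block, so its errors include that shared spread. The median member differed by 0.03.

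The interaction tests whether withdrawal acted differently in the BRCA2 siRNA-labelled libraries and under control siRNA. It passed for 4 members, all with the smaller rise in the BRCA2 siRNA-labelled libraries, against 1.93% of all genes with a negative and 1.38% with a positive interaction. RSAD2 had a withdrawal difference of 0.22 in the BRCA2 siRNA-labelled libraries and 1.80 under control siRNA, an interaction of -1.58 ± 0.34 (adjusted p = 0.0358; -1.63 within A, -1.56 within B and C). Since the filter kept RSAD2 through control siRNA without EGF alone, a negative interaction was built into its selection. IFI44L had 0.33 and 1.90, an interaction of -1.57 ± 0.27 (adjusted p = 0.0242), IFIT2 had 1.19 and 2.47, an interaction of -1.28 ± 0.30 (adjusted p = 0.0442), and SAMD9L had 0.29 and 1.04, an interaction of -0.75 ± 0.14 (adjusted p = 0.0287). IFIT1 had the largest estimate, -1.81 ± 0.55, and did not pass (adjusted p = 0.0902). The median over the 36 members was -0.33 (0.019 over all genes).

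The interaction calls depended on single libraries and, in part, on the settings. The IFIT2 call ended with no filter (adjusted p = 0.0519) and with no mean-variance trend (adjusted p = 0.0501), and under the stricter filter, where RSAD2 was not tested, the other 3 passed. The number of members that passed was 0 without control siRNA with EGF replicate A, either control siRNA library without EGF, BRCA2 siRNA without EGF replicate B or BRCA2 siRNA with EGF replicate C. It was 1 without replicate A of BRCA2 siRNA with EGF (SAMD9L) or of BRCA2 siRNA without EGF (IFI44L), and 8 without control siRNA with EGF replicate C. On leaving out a library in turn the estimates ran from -1.85 to -1.38 for RSAD2, -1.70 to -1.35 for IFI44L, -1.44 to -1.13 for IFIT2 and -0.81 to -0.70 for SAMD9L.

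Members also differed between replicates that share a group. In control siRNA with EGF, 3 of 36 members differed by more than 1 on the log2 scale between replicates B and C (4.26% of all genes), and in BRCA2 siRNA with EGF 2 did (3.07% of all genes). B minus C for IFI44 was -1.09 in BRCA2 siRNA with EGF and -1.48 in control siRNA with EGF, for IFIT1 -1.25 and -1.19, and for OAS3 -0.80 and -1.32, in the same order. The median absolute difference of the members was 0.25 in BRCA2 siRNA with EGF and 0.35 in control siRNA with EGF, beside 0.25 and 0.29 over all genes. IFI44 had a standard error of 0.40 in the withdrawal comparison under control siRNA, against 0.20 for its neighbour IFI44L.

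Upstream of the members stand the interferons themselves. Of 21 interferon genes listed, 14 were in the table and IFNK, IFNE and IFNA1 passed the filter, while IFNB1, IFNG and IFNL1 were among the 11 that did not. IFNK, an epithelial type I interferon, had 3.61, 4.04 and 3.86 in BRCA2 siRNA without EGF, 4.17 and 4.27 in control siRNA without EGF, 2.98, 2.79 and 3.12 in BRCA2 siRNA with EGF and 2.55, 2.59 and 2.63 in control siRNA with EGF. It rose by 0.87 ± 0.15 in the BRCA2 siRNA-labelled libraries (adjusted p = 0.00297) and by 1.63 ± 0.17 under control siRNA (adjusted p = 3.4e-05). IFNK too passed the filter through the libraries without EGF. IFNE, the type I interferon of the female reproductive tract, had 8.19, 8.24 and 8.50 in BRCA2 siRNA without EGF, 8.55 and 8.57 in control siRNA without EGF, 7.35, 7.46 and 7.46 in BRCA2 siRNA with EGF and 7.55, 7.62 and 7.53 in control siRNA with EGF. It rose by 0.89 ± 0.11 in the BRCA2 siRNA-labelled libraries (adjusted p = 0.000679) and by 0.99 ± 0.12 under control siRNA (adjusted p = 7.6e-05). Neither gene passed in either siRNA comparison or in the interaction. IFNA1 passed in the BRCA2 siRNA-labelled libraries (0.44 ± 0.15, adjusted p = 0.0445), a call that ended without any 1 of 8 libraries (0.36 to 0.44, adjusted p from 0.0512 to 0.145) and stood without BRCA2 siRNA with EGF replicate C, BRCA2 siRNA without EGF replicate A or control siRNA with EGF replicate C. IFNA1 is one of a family of near copies.

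Of 10 genes of the receptor and kinase list, 2 rose and 1 fell in the BRCA2 siRNA-labelled libraries (13.4% and 13.8% of all genes), and 2 rose and 2 fell under control siRNA (24.7% and 26.1% of all genes). These shares were near those of all genes. The genes that fell were JAK2 in the BRCA2 siRNA-labelled libraries, and JAK2 and IFNGR2 under control siRNA. On leaving out a library in turn, the JAK2 calls ended without any 1 of 7 and of 4 libraries, and the IFNGR2 call without any 1 of 3. The type I receptor chain IFNAR2 was at 7.75, 7.81 and 7.79 in BRCA2 siRNA without EGF, 7.98 and 7.59 in control siRNA without EGF, 7.04, 7.25 and 7.26 in BRCA2 siRNA with EGF and 7.06, 7.05 and 7.44 in control siRNA with EGF. It rose by 0.60 ± 0.14 in the BRCA2 siRNA-labelled libraries (adjusted p = 0.0123) and by 0.60 ± 0.16 under control siRNA (adjusted p = 0.00942), and these calls ended without BRCA2 siRNA with EGF replicate A (0.53, adjusted p = 0.0591) and without control siRNA without EGF replicate A (0.41, adjusted p = 0.127). The other chain, IFNAR1, rose by 0.37 ± 0.11 in the BRCA2 siRNA-labelled libraries (adjusted p = 0.0247) and by 0.54 ± 0.12 under control siRNA (adjusted p = 0.00328). The IFNAR1 call in the BRCA2 siRNA-labelled libraries ended without any BRCA2 siRNA library without EGF and without replicate A or B of those with EGF (0.33 to 0.39, adjusted p from 0.0506 to 0.0789).

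The endosomal sensor of double-stranded RNA, TLR3, had 6.34, 6.85 and 6.91 in BRCA2 siRNA without EGF, 7.43 and 7.61 in control siRNA without EGF, 5.88, 5.60 and 5.88 in BRCA2 siRNA with EGF and 5.44, 5.50 and 5.56 in control siRNA with EGF. It rose by 0.91 ± 0.17 in the BRCA2 siRNA-labelled libraries (adjusted p = 0.00361) and by 2.02 ± 0.19 under control siRNA (adjusted p = 2e-05), with an interaction of -1.11 ± 0.25 (adjusted p = 0.0394). Of the 8 upstream sensors, adaptors and kinases tested, TLR3 was the 1 that rose under control siRNA, and TBK1 and TRAF3, which carry the signal to IRF3, fell (-0.44 and -0.53), against 24.7% of all genes that rose and 26.1% that fell.

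Of 10 genes known to restrain the pathway, 1 rose and 2 fell on withdrawal in the BRCA2 siRNA-labelled libraries, against 13.4% and 13.8% of all genes. Under control siRNA 3 rose and 5 fell, against 24.7% and 26.1%. The phosphatase PTPN1, which acts on JAK kinases, had 12.54, 12.47 and 12.33 in BRCA2 siRNA without EGF, 11.54 and 11.65 in control siRNA without EGF, 12.83, 13.04 and 12.70 in BRCA2 siRNA with EGF and 13.15, 12.80 and 12.61 in control siRNA with EGF. On withdrawal it fell by 0.41 ± 0.13 in the BRCA2 siRNA-labelled libraries (adjusted p = 0.04) and fell by 1.25 ± 0.15 under control siRNA (adjusted p = 6.8e-05), and the interaction was 0.84 ± 0.20 (adjusted p = 0.0468). Its call in the BRCA2 siRNA-labelled libraries ended without any 1 of 7 libraries (-0.46 to -0.32, adjusted p from 0.0568 to 0.135), which were all of those labelled BRCA2 siRNA but replicate C with EGF, and both control siRNA libraries without EGF. SOCS3, a feedback inhibitor of JAK kinases, fell by 0.51 ± 0.13 in the BRCA2 siRNA-labelled libraries (adjusted p = 0.014) and fell by 0.90 ± 0.14 under control siRNA (adjusted p = 0.000365). The SOCS3 call in the BRCA2 siRNA-labelled libraries ended without BRCA2 siRNA with EGF replicate A or BRCA2 siRNA without EGF replicate C (-0.49 to -0.47, adjusted p from 0.0503 to 0.0617). NLRC5 rose by 1.58 ± 0.25 under control siRNA (adjusted p = 0.000439).

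Beyond the 36 members, 33 further interferon-stimulated genes were tested. In the BRCA2 siRNA-labelled libraries 7 rose and 2 fell (13.4% and 13.8% of all genes), and under control siRNA 12 rose and 5 fell (24.7% and 26.1%), with a median of 0.16. In BRCA2 siRNA without EGF 3 were higher and 4 lower than in control siRNA without EGF, a share near that of all genes (11.2% and 9.36%). The guanylate-binding protein GBP2 was at 6.80, 7.29 and 8.10 in BRCA2 siRNA without EGF, 9.21 and 9.03 in control siRNA without EGF, 6.01, 6.08 and 6.25 in BRCA2 siRNA with EGF and 6.00, 6.15 and 6.12 in control siRNA with EGF. It rose by 1.29 ± 0.25 in the BRCA2 siRNA-labelled libraries (adjusted p = 0.00521) and by 3.03 ± 0.28 under control siRNA (adjusted p = 2.1e-05), was lower in BRCA2 siRNA without EGF than in control siRNA without EGF with a difference of -1.72 ± 0.28 (adjusted p = 0.00331), and had an interaction of -1.74 ± 0.38 (adjusted p = 0.0373). The chemokines CXCL9, CXCL10 and CXCL11, which interferon strongly induces, were under the filter. The interaction calls of TLR3, PTPN1 and GBP2 each ended on leaving out any 1 of 8 libraries (adjusted p from 0.0517 to 0.19), which included both control siRNA libraries without EGF, BRCA2 siRNA without EGF replicates A and B and the replicate A libraries with EGF.

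**Figure D5:**
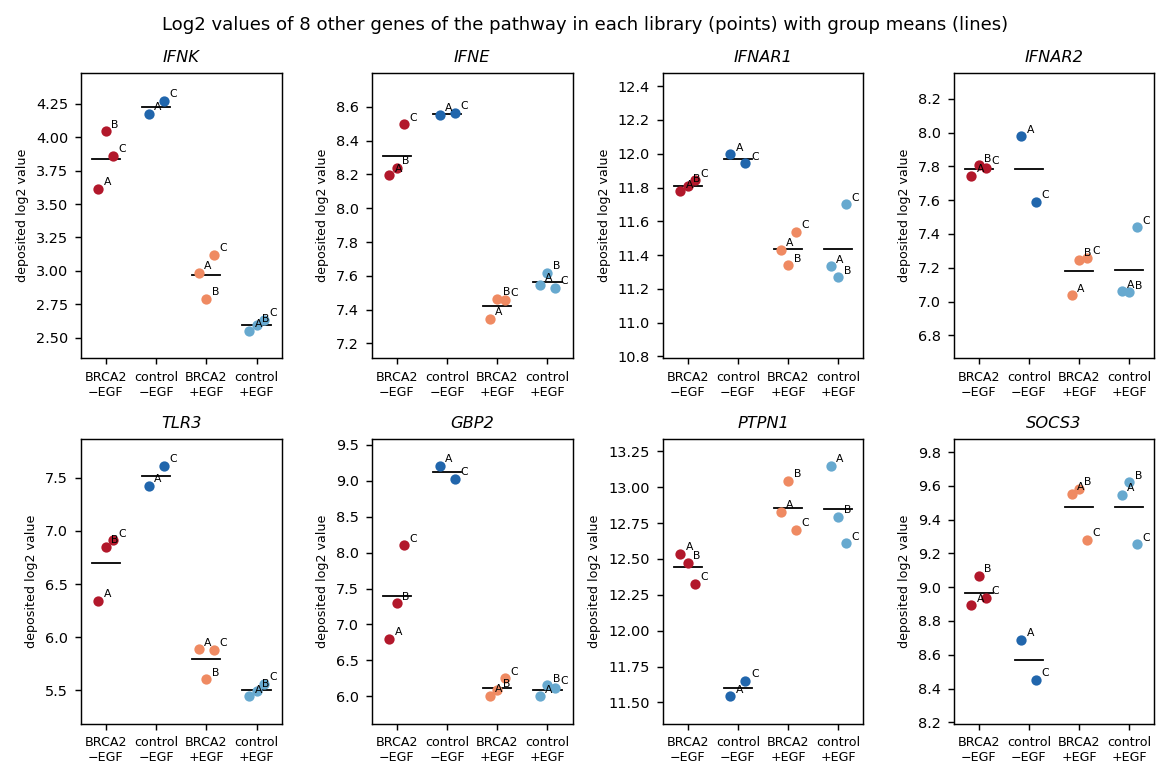
Log2 values of 8 genes that act upstream of, beside or against the members, in each library (points with the replicate letter), with group means (lines) and a vertical axis for each gene that does not start at 0. IFNK, IFNE and TLR3 are higher in every library without EGF than in any with EGF, and PTPN1 is lowest in the 2 libraries of control siRNA without EGF (11.54 and 11.65).

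Some markers of the basal type and of other cell types differed between the groups. Of all genes tested, 13.4% rose and 13.8% fell on withdrawal in the BRCA2 siRNA-labelled libraries, and 24.7% and 26.1% under control siRNA. Without EGF, 9.36% were lower and 11.2% higher in the BRCA2 siRNA-labelled libraries than in control siRNA. Of 8 basal markers 4 rose and 1 fell in each withdrawal, and 2 were lower between siRNAs without EGF. Of 6 fibroblast markers 5 passed the filter, of which 3 rose on withdrawal in the BRCA2 siRNA-labelled libraries, all 5 rose under control siRNA, and 3 were lower in BRCA2 siRNA without EGF than in control siRNA without EGF. The COL1A1 difference was 1.90, 3.05 and -1.07 in these comparisons, in that order. LUM was 1.05, 0.81 and 0.43, and the last of these did not pass (adjusted p = 0.131). COL1A2 was under the filter. The log2 of their summed level was 11.83 to 12.55 in BRCA2 siRNA without EGF, 13.03 to 13.15 in control siRNA without EGF, 10.84 to 10.99 in BRCA2 siRNA with EGF and 10.67 to 11.04 in control siRNA with EGF. Of 8 leukocyte markers CD14 passed the filter and PTPRC, CD3E, ITGAM and CD68 were in the table under it, with log2 sums of 4.78 to 4.96, 5.42 to 5.90, 4.25 to 4.62 and 4.25 to 4.63 in the same order of groups. CD14 rose by 0.82 on withdrawal in the BRCA2 siRNA-labelled libraries and by 2.00 under control siRNA. It was lower in BRCA2 siRNA without EGF than in control siRNA without EGF, with a difference of -1.04. Of the 4 luminal markers over the filter, 0 rose and 2 fell on withdrawal in the BRCA2 siRNA-labelled libraries, and 2 rose and 1 fell under control siRNA. Between siRNAs without EGF KRT8 was lower (-0.76) and KRT18 higher (0.45) in the BRCA2 siRNA-labelled libraries. Of 4 endothelial markers TEK passed the filter, and it fell by 1.13 under control siRNA. The part of these cell types in the results of the members was not tested.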

How the data were processed

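The authors deposited 1 table of log2 values for 40460 Ensembl genes in 11 libraries. The submitters' processing notes name hg19, TopHat2 2.0.11, DESeq2 and limma, with no role or order, while the read counter, its annotation and strand setting, and how the log2 scale was reached were not stated in the sources read. Folds of low genes may be compressed. Replicate A was centred against replicates B and C (7.2e-09 at most between their means), a step that no source names. It uses information that the model does not count, so the 7 residual degrees of freedom may be too many and the p-values too small.

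Symbols came from a gene-name table that matched 37585 IDs (92.9%). Genes with 10 or more on the linear scale in at least 2 libraries were fitted in limma 3.58.1 under R 4.3.3, with the 4 groups as the design, no replicate block, 7 residual degrees of freedom, and empirical Bayes moderation with a mean-variance trend. Tests were two-sided, with Benjamini-Hochberg adjustment over the 17945 genes of a comparison and a threshold of 0.05. Errors after ± are moderated standard errors, and a fold is 2 raised to the log2 difference. The script was tested on simulated data. Overlapping genes came from GENCODE on a later build, by name only, and start-site windows from RefSeq.

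The members and lists were chosen with earlier results of these data known. Library values are printed for up to 4 members rising and 4 falling most in a comparison and for at least 1 of each role, and from each other list up to 4 genes with the smallest p could be named. LIPA was added after its overlap was seen. Alternatives changed the filter, scaling, design, spread or libraries. Same-letter libraries were checked for pairing: with EGF, B and C deviated together across siRNAs (0.70 each), other same-letter pairs did not, and the letters were not used as a block. The centring of replicate A pushes its pairs towards negative values, so for these the check could not decide. No column was left without a sample. Some genes of the pathway lists are not reported here.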

Additional observations from a re-analysis of the deposited data

Results flagged for a closer look

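For 7 genes the test of the difference between the withdrawal effects in the BRCA2 siRNA-labelled libraries and under control siRNA passed, by limma with Benjamini-Hochberg adjustment. Among the members these were RSAD2 (-1.58 on the log2 scale), IFI44L (-1.57), IFIT2 (-1.28) and SAMD9L (-0.75). RSAD2 had passed the filter on low values through control siRNA without EGF alone, so a negative value was built into its selection. Among the other genes of the pathway they were GBP2 (-1.74), TLR3 (-1.11) and PTPN1 (0.84). Each of the 7 calls ended on leaving out some single libraries, as given with the results, and control siRNA without EGF had 2 libraries.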

How the results depend on the processing

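With 11 libraries and 2 in one group, single libraries decide many calls, and the absent counts leave the effect of depth untested. Of 51 member calls, 11 held under every alternative run and 0 changed sign. These 11 were the calls under control siRNA withdrawal of IFIT1, IFIT2, IFI44L, IFIH1, OAS1, RSAD2, SAMD9, SAMD9L, STAT2, DTX3L and ISG20. OAS1 and RSAD2 were not tested under the stricter filter, which removed them. Both had passed the main filter through libraries without EGF alone, so a rise was built into their selection. In the siRNA comparison with EGF 0 members passed under every alternative. With replicates B and C alone the numbers of members called were 0 without EGF between siRNAs (12 with all libraries), 0 for withdrawal in the BRCA2 siRNA-labelled libraries (11), 11 for withdrawal under control siRNA (24) and 0 for the interaction (4). That fit had fewer libraries and 1 of control siRNA without EGF.

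With the replicate block 7 members passed the interaction in place of 4, the siRNA comparison without EGF kept 12, and withdrawal gave 13 in the BRCA2 siRNA-labelled libraries and 23 under control siRNA. The block also ended the calls of OAS1 in the BRCA2 siRNA-labelled libraries (0.67, adjusted p = 0.0506) and of SP110 under control siRNA (0.23, adjusted p = 0.0804). A term for replicate A alone ended 5 of the 51 member calls. In the BRCA2 siRNA-labelled libraries these were IFIT1 (adjusted p = 0.0557), OAS1 (0.0572) and SAMD9L (0.0556). Under control siRNA they were OAS2 (0.0517) and SP110 (0.0624). Same-letter libraries correlated between -0.37 and 0.70 in their deviations from the group means. Between the 2 groups with EGF, replicates B (0.70) and C (0.70) deviated together and replicate A (-0.12) did not. Since not every same-letter pair was over 0.1, the letters were not taken as a block. That rule could not decide the question. The centring of replicate A pushes its pairs towards negative values. The 2 libraries of control siRNA without EGF deviate from their mean by equal and opposite amounts. Whether the letters pair is therefore left undecided for replicate A and for that group.

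Leaving out each library in turn gave 3 to 12 calls for the siRNA comparison without EGF, 6 to 15 for withdrawal in the BRCA2 siRNA-labelled libraries, 19 to 26 for withdrawal under control siRNA and 0 to 8 for the interaction. The lowest of the first came without control siRNA without EGF replicate A. The interaction had no fit of the groups compared alone, since it uses all 4 groups. The shares of all genes called under these alternatives are not given here.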
